A study of Mus musculus with 549 samples.

Results

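The complement components measured here were C1qa, C1qb, C1qc, C2, C3, C4b and Cfb, that is 7 of the 23408 genes listed in 12 tables of normalised read counts, taken by their symbols. The tables hold bulk RNA sequencing libraries of the inguinal lymph node and of 3 tibial tissues (cartilage, and cancellous and cortical bone of the metaphysis without marrow) of male C57BL/6J mice, for which the labels name no genetic change. The mice were given parathyroid hormone (PTH), a bone-forming peptide hormone, or vehicle for 8 weeks from 18 weeks of age, 5 days a week. Cyclic compression of the left tibia followed for 1 or 2 weeks, with a peak of 9 N at 4 Hz for 1200 cycles a day, and the right limb of the same mouse was the contralateral control. During loading the mice also received alendronate, a bisphosphonate that slows bone resorption, or vehicle.

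After loading there were therefore 4 treatment groups, each with a loaded (left) and a contralateral (right) limb: PTH and then vehicle (called PTH mice below), vehicle and then alendronate (alendronate mice), PTH and then alendronate (PTH-alendronate mice) and vehicle throughout (vehicle mice). They were 27 weeks old after 1 week of loading and 28 weeks old after 2 weeks. Mice given PTH alone and mice given vehicle alone were taken at 26 weeks of age, before any loading. Limbs were not pooled. The contralateral limb belongs to a mouse that was loaded and anaesthetised, so it is not an untouched limb.

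Complement is a cascade of plasma and tissue proteins that marks particles for uptake and drives inflammation. In the classical pathway the recognition molecule C1q, built from the chains C1qa, C1qb and C1qc, leads to cleavage of C4 and C2, whose fragments form the enzyme that cleaves C3. In the alternative pathway factor B (Cfb) takes the place of C2. Most plasma complement is made in the liver, whereas C1q is made mainly by macrophages, and fibroblasts, adipocytes and chondrocytes are known to make several other components. Complement activation in joints has been linked to osteoarthritis in patients and in mouse models.

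All 7 genes were expressed in the 4 tissues, and the change that recurred most was a lower C3 and C4b transcript level in the cartilage of the loaded limb. The average over the 4 treatments is a comparison added after seeing the data. In it C3 fell by 1.08 ± 0.17 after 1 week of loading and by 1.12 ± 0.22 after 2 weeks on the log2 scale. C4b fell by 0.74 ± 0.17 and by 0.89 ± 0.23 (log2, standard error). Of all genes, 11.2% and 9.69% were called lower in cartilage in that average at 1 and 2 weeks. Within a treatment, C3 was called in 3 of 8 cartilage comparisons and C4b in 1 of 8. In bone and lymph node, loaded and contralateral limbs within a treatment gave 154 tests of the 7 genes. With limma none was called, against 0.0263% of all gene tests. With edgeR 1 was called and with array weights 4, settings for which the share of all genes was not set beside the count. Before loading, C4b and Cfb were higher in cartilage of PTH mice than of vehicle mice, calls that were lost with libraries under 100000 reads included. In right lymph nodes of alendronate mice at 2 weeks C1qa and Cfb were called higher than in those of vehicle mice. These were 2 of 168 contralateral tests (1.19%, against 1.5% of all gene tests). The Cfb call was lost in 8 of 14 fits that left out 1 library. Alendronate and the series of library codes cannot be told apart in those lymph nodes.

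The genes lie in 3 places of the mouse genome (GRCm38, GENCODE M21 annotation), all on the minus strand. C1qb (chr4:136880129-136886187), C1qc (chr4:136889804-136893065) and C1qa (chr4:136895917-136898803) are neighbours within 18675 bases. C4b (chr17:34728380-34743882), Cfb (chr17:34856374-34862518) and C2 (chr17:34862604-34898265) span 169886 bases of the major histocompatibility complex, with 85 bases between Cfb and C2. C3 stands alone (chr17:57203970-57228136). C4b has a near-identical copy, C4a, 65209 bases away, and 172 of the 451 windows of 50 bases in the last 500 bases of the C4b transcript also occur in C4a (38.1%). Reads counted for C4b may therefore be shared with C4a, and C4b values are uncertain to that extent.

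The 250 bases before the start of transcription were present in the RefSeq promoter table (GRCm38.p6) for 3 of the 7 genes. They are shown because, averaged over the treatments, C3 fell in loaded cartilage at both weeks, while the neighbours C1qb and C1qc had calls of opposite sign there, C1qb rising at 1 week and C1qc falling at 2 weeks. Each is written on the gene's own strand (minus), 5′ to 3′, ending at the base before the start that RefSeq gives. That start is the GENCODE one for C3 but lies 13 bases further upstream for C1qb and 151 bases inside the GENCODE gene for C1qc, so that 151 of the 250 bases shown for C1qc lie within the gene interval given above.

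C3, chr17:57228137-57228386: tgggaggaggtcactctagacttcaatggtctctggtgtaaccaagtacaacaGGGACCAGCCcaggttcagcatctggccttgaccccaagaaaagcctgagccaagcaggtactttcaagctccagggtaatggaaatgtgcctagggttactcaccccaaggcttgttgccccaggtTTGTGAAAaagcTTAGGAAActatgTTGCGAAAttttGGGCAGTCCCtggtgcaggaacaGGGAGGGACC

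C1qb, chr4:136886201-136886450: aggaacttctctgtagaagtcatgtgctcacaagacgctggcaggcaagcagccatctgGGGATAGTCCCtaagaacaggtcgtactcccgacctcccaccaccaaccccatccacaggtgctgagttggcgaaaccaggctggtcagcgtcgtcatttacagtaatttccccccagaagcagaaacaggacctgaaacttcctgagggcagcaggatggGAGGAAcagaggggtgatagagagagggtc

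C1qc, chr4:136892915-136893164: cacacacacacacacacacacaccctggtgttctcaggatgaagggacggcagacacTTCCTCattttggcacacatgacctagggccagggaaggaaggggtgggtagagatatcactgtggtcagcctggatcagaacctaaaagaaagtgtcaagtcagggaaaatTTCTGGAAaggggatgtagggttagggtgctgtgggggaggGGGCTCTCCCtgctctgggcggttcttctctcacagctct

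Capitals mark matches, on either strand, to 3 motifs: TTNNGNAA of the C/EBP factors, GGGANNNNCC of NF-kB and GAGGAA of the macrophage factor PU.1. The C3 window holds 3 C/EBP matches, beginning 70, 58 and 45 bases before the start, and 3 NF-kB matches, beginning 197, 33 and 10 bases before it. Of 32851 promoters in the table, 2.61% hold C/EBP matches in at least 3 places and 0.356% hold NF-kB matches in at least 3 places. The C1qb window holds an overlapping pair of NF-kB matches and 1 PU.1 match, and the C1qc window holds 1 match to each of the 3 motifs. At least 1 match is found in 36.8% of promoters for C/EBP, 17.6% for NF-kB and 23.3% for PU.1. An interferon response element, GAAA and GAAA with 2 free bases between them, was also searched and is in 2.98% of promoters and in none of these 3 windows. Matches describe letters and do not show that a factor binds there.

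Values were available for 505 of the 549 samples described, and 477 libraries with at least 100000 reads were used (127777 to 3557793 reads, median 1576773). Each library comes from the 3′ end of transcripts. In cartilage, the chondrocyte genes Acan and Col2a1 had table medians of 175 to 271 and 242 to 569 CPM, the share of a library's total scaled to a common size, against 5891 to 13483 CPM for Col1a1 of bone and fibrous tissue, so the cartilage libraries hold other tissue as well. Ccl19 of lymph node stroma had table medians of 367 to 508 CPM in lymph node and at most 3.43 CPM elsewhere. The macrophage marker Adgre1 and the lymph node marker Ccl21a were at 0 in every library.

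Of the 143 cartilage libraries, 8 stood apart by lymph node markers. In these 8, the lymph node stroma list (Ccl19, Ccl21a, Cxcl13 and Madcam1) summed to 164 to 575 CPM, against at most 16.6 CPM in the other 135, and the T cell list summed to 111 to 561 CPM, against at most 55.2 CPM. They were 4 contralateral libraries of loaded PTH mice or vehicle mice, 1 contralateral library of PTH-alendronate mice, 2 loaded libraries of PTH mice and 1 left library of unloaded PTH mice. C3 had a median of 627 CPM in the 8 and of 156 CPM in the other 135, and 7 of the 8 were among the 8 highest cartilage libraries for C3. Factor B behaved alike, with 162 and 21.6 CPM and again 7 of the 8 highest, whereas C4b had 114 and 58.3 CPM and 1 of the 8 highest. A loaded cancellous library of a vehicle mouse at 1 week also held these markers (338 and 374 CPM). The loading and PTH differences that turn on cartilage are therefore also given without these libraries, a choice made after seeing the data.

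C3, whose cleavage product C3b coats surfaces and whose product C3a attracts leukocytes, is the component on which all complement pathways converge. After 1 week of loading, C3 in PTH mice had normalised read counts of 93.5 to 1191 (median 217, n = 8) in loaded cartilage, against 320 to 886 (median 437, n = 8) in contralateral cartilage. In alendronate mice the loaded limbs had 91.3 to 482 (median 190, n = 8) and the contralateral limbs 439 to 609 (median 517, n = 8). In PTH-alendronate mice the loaded limbs had 92.7 to 527 (median 215, n = 7) and the contralateral limbs 217 to 1309 (median 398, n = 6). All 3 loaded groups had lower medians than their contralateral groups. The ranges overlapped, but 7 of the 8 loaded values in PTH mice, 6 of the 8 in alendronate mice and 4 of the 7 in PTH-alendronate mice lay below every contralateral value, the exception in PTH mice being a library with lymph node markers. In vehicle mice the loaded limbs had 196 to 374 (median 256, n = 7) and the contralateral limbs 336 to 1084 (median 546, n = 7), and 4 of the 7 loaded values lay below every contralateral value.

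The fold changes were tested with limma on log2(count + 1), with Benjamini-Hochberg adjustment over all genes of the table and a threshold of 0.05. C3 fell in alendronate mice by 1.26 ± 0.32 (log2, adjusted p = 0.00645) and in PTH-alendronate mice by 1.09 ± 0.35 (adjusted p = 0.035), comparisons in which 6.67% and 10.6% of all genes were called. The difference was -0.96 ± 0.32 in PTH mice (adjusted p = 0.077) and -1.02 ± 0.34 in vehicle mice (adjusted p = 0.129), which did not pass and in which 3.15% and 1.35% of all genes were called. An alternative fit took the compared groups alone, with the replicate number of the labels as a block. In it the PTH mice passed (adjusted p = 0.0442) and the PTH-alendronate mice did not (adjusted p = 0.195). By the library codes, 28 of 29 same-numbered pairs at 1 week were limbs of 1 mouse, the exception being in PTH-alendronate mice. Without the libraries with lymph node markers, the PTH mice passed as well (-1.16, adjusted p = 0.00525) and the PTH-alendronate mice did not (-0.79, adjusted p = 0.0723). When each library was left out in turn, the call in alendronate mice held in all 16 fits (adjusted p up to 0.036), and that in PTH-alendronate mice was lost in 6 of 13, without loaded library 2, 3, 5 or 7 or contralateral library 1 or 3 (adjusted p up to 0.152).

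After 2 weeks of loading, C3 in PTH mice had 45.9 to 632 (median 141, n = 8) in loaded cartilage, against 247 to 1448 (median 318, n = 8) in contralateral cartilage. In alendronate mice the loaded limbs had 163, 113, 56.3, 166 and 154, and the contralateral limbs 167 to 523 (median 252, n = 6). In PTH-alendronate mice the loaded limbs had 75.4 to 345 (median 133, n = 7) and the contralateral limbs 175, 509, 231 and 177. The limbs of alendronate mice did not overlap, by a margin of about 2 counts, while those of the other treatments did. In vehicle mice the loaded limbs had 52.2 to 486 (median 198, n = 8) and the contralateral limbs 192 to 404 (median 328, n = 8). C3 fell in PTH mice by 1.74 ± 0.40 (log2, limma adjusted p = 0.00413; 4.71% of all genes called). The difference was -1.23 ± 0.48 in alendronate mice (adjusted p = 0.111; 6.24% of genes called), -0.87 ± 0.50 in PTH-alendronate mice (adjusted p = 0.515; 0.593%) and -0.64 ± 0.40 in vehicle mice (adjusted p = 0.567; 1.37%). The call in PTH mice was lost with the replicate number as a block (adjusted p = 0.0563) and kept without the libraries with lymph node markers (-1.51, adjusted p = 0.0055). Those libraries were all of PTH mice, but all groups share 1 fit. In the limma fit without them the alendronate mice passed the threshold with an unchanged difference (-1.23, adjusted p = 0.0338).

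C4b, the mouse C4 whose fragment forms part of the classical C3 convertase, was also lower in the loaded limb. After 1 week, C4b in alendronate mice had 55.7 to 104 (median 78.7, n = 8) in loaded cartilage, against 90.3 to 368 (median 253, n = 8) in contralateral cartilage. The ranges overlapped by few libraries, since 7 of the 8 contralateral values lay above every loaded value, and C4b fell by 1.38 ± 0.32 (log2, limma adjusted p = 0.00213). PTH mice had 57.1 to 260 (median 113) in loaded and 141 to 227 (median 182) in contralateral cartilage, a difference of -0.58 ± 0.32 (adjusted p = 0.349). PTH-alendronate mice had 44.5 to 172 (median 98.1) in loaded and 60.9 to 365 (median 112) in contralateral cartilage, a difference of -0.35 ± 0.35 (adjusted p = 0.587). In vehicle mice the values were 73.1 to 276 (median 83.7) in loaded and 52.9 to 310 (median 176) in contralateral cartilage, a difference of -0.66 ± 0.34 (adjusted p = 0.512). In PTH mice 6 of the 8 loaded values lay below every contralateral value, while the groups of PTH-alendronate and vehicle mice overlapped widely. Without the libraries with lymph node markers the differences were -0.72 in PTH mice (adjusted p = 0.201), -0.02 in PTH-alendronate mice (adjusted p = 0.98) and -0.64 in vehicle mice (adjusted p = 0.455). In PTH-alendronate mice the library left out was contralateral library 3.

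After 2 weeks none of the C4b comparisons within a treatment passed. Vehicle mice came nearest to separation, with 42.6 to 81.8 (median 58.3, n = 8) in loaded and 77.0 to 167 (median 102, n = 8) in contralateral cartilage, where 7 of the 8 loaded values lay below every contralateral value. The difference was -0.97 ± 0.41 (log2, limma adjusted p = 0.304), and with the replicate number as a block it passed (adjusted p = 0.00633), all 8 mice being lower in the loaded limb. The differences were -0.53 in PTH mice (adjusted p = 0.537), -1.02 in alendronate mice (adjusted p = 0.215) and -1.03 in PTH-alendronate mice (adjusted p = 0.452). Without the libraries with lymph node markers the PTH mice had -0.60 (adjusted p = 0.537), and none of the 4 passed.

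**Figure D1:**
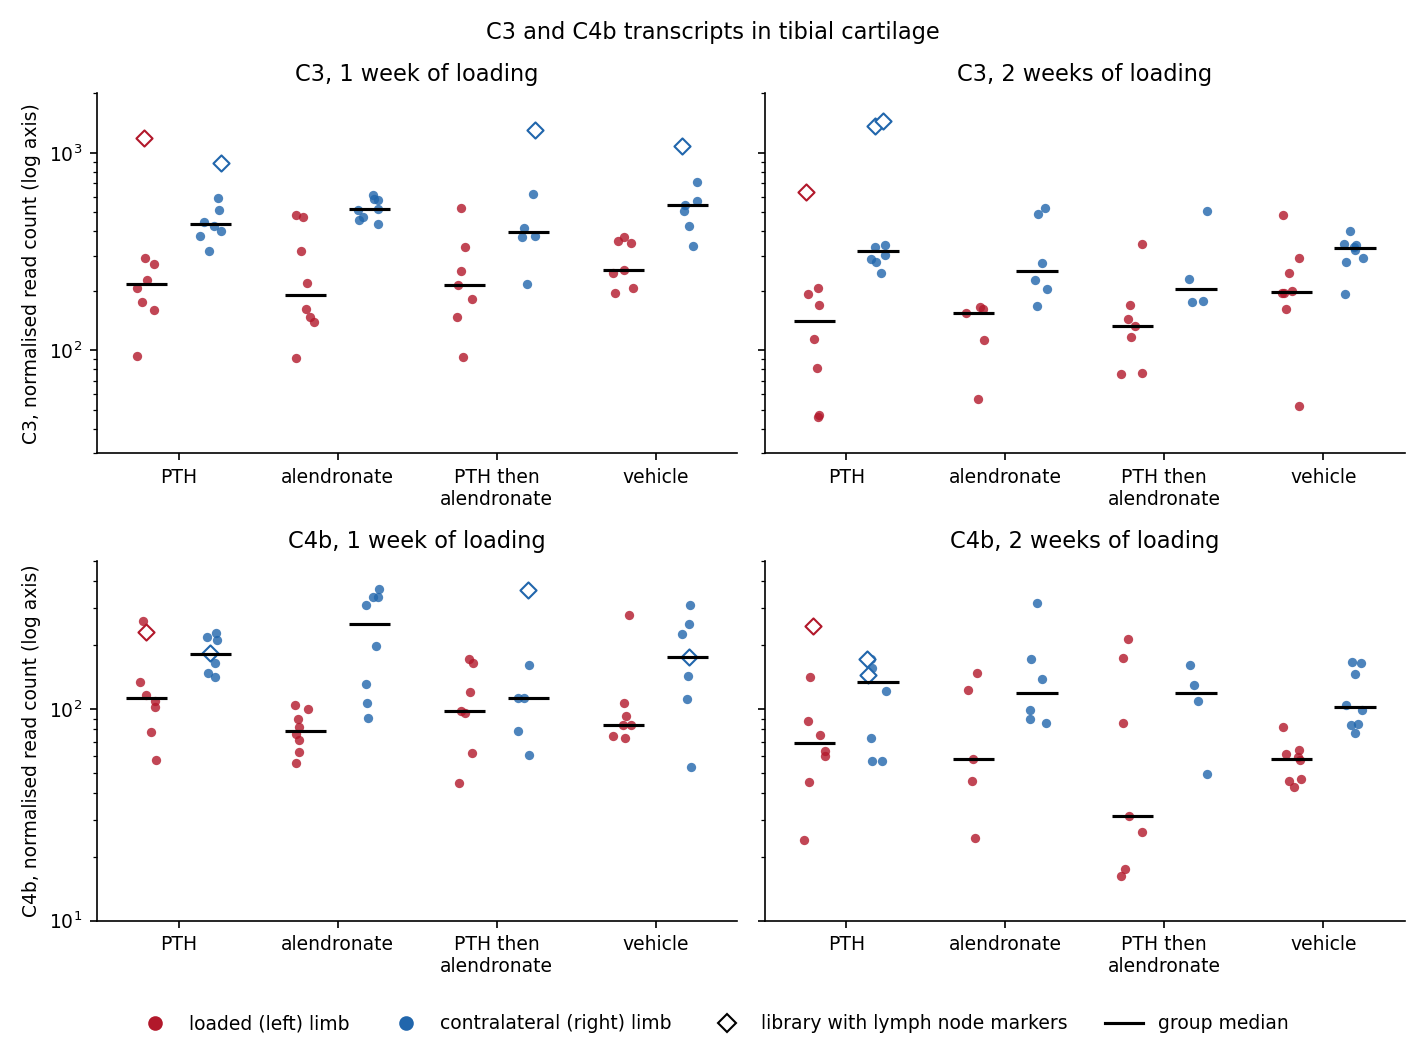
Normalised read counts (log axis) of C3 (top) and C4b (bottom) in loaded (red) and contralateral (blue) tibial cartilage after 1 week (left) and 2 weeks (right), by treatment; points are libraries, bars are group medians and open diamonds are libraries with lymph node markers. The loaded median lies below the contralateral median in all 8 pairs for C3, for example 190 against 517 in alendronate mice at 1 week, and in every group that holds diamonds they are the highest for C3.

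Over the 8 cartilage comparisons, the 7 genes gave 56 tests, of which 4 were called, all lower in the loaded limb (7.14%, against 4.32% of all gene tests in the same comparisons). The 4 were C3 in 3 comparisons and C4b in 1. The fold change was negative in 8 of 8 comparisons for C3 (-1.74 to -0.64) and for C4b (-1.38 to -0.35), where the C4b comparison nearest 0, that of PTH-alendronate mice at 1 week, had -0.02 without the libraries with lymph node markers. Mice with both limbs sequenced had less C3 in the loaded limb in 24 of 28 cases at 1 week and in 20 of 24 at 2 weeks, and less C4b in 23 of 28 and in 20 of 24. Each comparison rests on at most 8 mice a limb. The difference in loading response between treatments was tested as an interaction, and none of the 154 tests over the 4 tissues was called (0.00216% of all gene tests; 5 of the 154 had an unadjusted p under 0.05). The largest for C3 was that of PTH mice against vehicle mice at 2 weeks, -1.10 ± 0.56 (log2, limma adjusted p = 0.97), so a different response of PTH mice was not shown.

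Loading averaged over the treatments, a comparison added after seeing the data, gave calls for 6 of 56 tests over all tissues, 1 higher and 5 lower (10.7%, against 6.83% of all gene tests). In both bones at 1 week the average leaves out PTH-alendronate mice. All 6 were in cartilage, where 13.8% of all genes were called higher and 11.2% lower at 1 week, and 11.5% and 9.69% at 2 weeks. C3 fell by 1.08 at 1 week (limma adjusted p = 6.15e-07) and by 1.12 at 2 weeks (adjusted p = 0.000162). C4b fell by 0.74 (adjusted p = 0.000407) and by 0.89 (adjusted p = 0.00354). Without the libraries with lymph node markers, the C3 differences were -1.02 and -1.06 and the C4b differences -0.69 and -0.90, all of which passed.

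The loading responses of the remaining genes were smaller. Factor B (Cfb), the protease of the alternative C3 convertase, differed by -0.26 (95% interval -0.75 to 0.23) at 1 week and -0.46 (-1.01 to 0.08) at 2 weeks on the log2 scale. C2, the classical protease that factor B resembles, differed by 0.18 (-0.38 to 0.74) and 0.28 (-0.55 to 1.10). C2 had few reads in cartilage, with a median of 5.42 CPM and 4 of 143 libraries at 0, so changes of up to the width of these intervals were not detectable at this depth.

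Among the C1q chains, C1qb rose by 0.33 ± 0.11 in loaded cartilage at 1 week (log2, limma adjusted p = 0.0204). Its loaded and contralateral medians were 447 and 412 in PTH mice, 530 and 519 in alendronate mice, 528 and 328 in PTH-alendronate mice and 689 and 571 in vehicle mice. All 4 pairs of groups overlapped, and 11 of 28 mice had less C1qb in the loaded limb. At 2 weeks the C1qb difference was 0.18 ± 0.16 (adjusted p = 0.456). C1qc differed by 0.10 at 1 week (adjusted p = 0.492) and fell by 0.51 ± 0.15 at 2 weeks (adjusted p = 0.0118). At 2 weeks its loaded and contralateral medians were 291 and 315 in PTH mice, 227 and 381 in alendronate mice, 244 and 357 in PTH-alendronate mice and 300 and 319 in vehicle mice. The limbs of alendronate mice did not overlap, those of the other 3 treatments did, and 20 of 24 mice had less C1qc in the loaded limb. With the libraries under 100000 reads included, the C1qc call was lost (-0.42, adjusted p = 0.0515). Without the libraries with lymph node markers C1qb had 0.37 at 1 week (adjusted p = 0.0111) and C1qc -0.40 at 2 weeks (adjusted p = 0.0133). C1qa differed by 0.03 (95% interval -0.26 to 0.32) and -0.01 (-0.32 to 0.30).

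**Figure D2:**
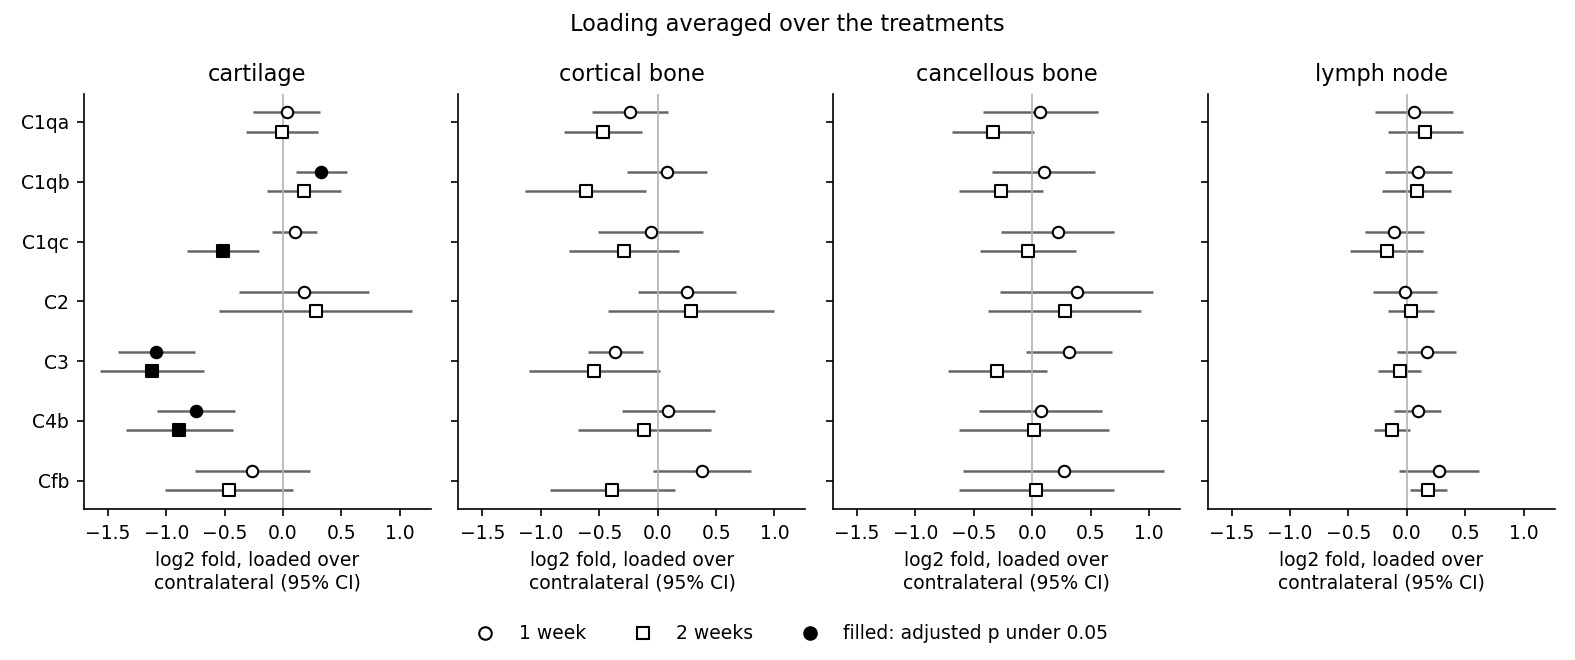
Log2 fold change of loaded over contralateral limb, averaged over the treatments, with its 95% interval, for the 7 genes in the 4 tissues after 1 week (circles) and 2 weeks (squares); filled symbols passed an adjusted p of 0.05. The filled symbols are all in cartilage: C3 and C4b at both weeks (-1.12 to -0.74), C1qc at 2 weeks (-0.51) and C1qb at 1 week (0.33).

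Other complement genes in the same cartilage libraries did not all move with C3. At 1 week of loading, averaged over the treatments, 3 of the 9 upstream and terminal components tested fell and none rose (median -0.33), 5 of 9 regulators fell and none rose (median -0.38), and 4 of 11 receptors rose while 3 fell (median -0.26). The median over all genes was 0.005. At 2 weeks 4 of 11 upstream and terminal components, 1 of 9 regulators and 3 of 11 receptors fell and 4 receptors rose, with medians of -0.18, -0.20 and -0.50 against -0.01 over all genes. Cfd (factor D, or adipsin), the protease that cleaves factor B, fell by 2.92 ± 0.37 at 1 week (log2, limma adjusted p = 4.52e-09) and by 1.72 ± 0.35 at 2 weeks (adjusted p = 0.000198). C3ar1, the receptor of C3a, rose by 1.25 ± 0.16 (adjusted p = 1.29e-08) and by 1.03 ± 0.21 (adjusted p = 0.000231). Cd93, a membrane protein once described as a C1q receptor, rose by 0.69 ± 0.08 (adjusted p = 1.43e-09) and by 0.67 ± 0.12 (adjusted p = 2.36e-05). Calr, the chaperone calreticulin that binds C1q, rose by 0.39 ± 0.08 at 1 week (adjusted p = 0.000238), and Itgb2, the shared chain of complement receptors 3 and 4, fell by 1.01 ± 0.19 at 2 weeks (adjusted p = 5.12e-05).

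In the 3 cartilage comparisons within a treatment in which a member was called, the 4 other complement genes of smallest p are named, and all passed. They were picked by their p, so their passing does not describe the other complement genes. In these comparisons, in the order below, 6.67%, 10.6% and 4.71% of all genes were called. In alendronate mice at 1 week Cfd fell by 4.17 ± 0.70 (limma adjusted p = 2.14e-05) and Cd93 rose by 0.73 ± 0.16 (adjusted p = 0.00134), while Itgb2 fell by 0.80 ± 0.22 and Cfp, the stabilising factor properdin, by 0.88 ± 0.25. In PTH-alendronate mice at 1 week Cd93 rose by 0.87 ± 0.18 and C3ar1 by 1.49 ± 0.35, while Cfd fell by 3.07 ± 0.79 and the regulator Cr1l by 0.57 ± 0.16. In PTH mice at 2 weeks C3ar1 rose by 1.79 ± 0.38, Cd93 by 0.73 ± 0.21, the scavenger receptor Lrp1 by 1.40 ± 0.41 and the collectin Colec12 by 1.25 ± 0.37.

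Markers of several cell types also differed between the limbs. All 8 genes of the adipocyte list, which includes Cfd, fell in loaded cartilage at 1 week (median -1.77) and 7 of 8 at 2 weeks (median -1.10). The summed adipocyte level at 1 week was 391 to 695 CPM in loaded and 727 to 7199 CPM in contralateral cartilage of alendronate mice, which did not overlap. It was 255 to 966 against 726 to 4773 CPM in PTH-alendronate mice at 1 week and 102 to 720 against 403 to 1625 CPM in PTH mice at 2 weeks, both overlapping. Of the 8 neutrophil genes, 6 fell at both weeks (medians -0.84 and -1.08). The summed neutrophil level was 5064 to 71304 CPM in loaded and 42575 to 78373 CPM in contralateral cartilage of alendronate mice at 1 week. It was 12003 to 62569 against 30144 to 64632 CPM in PTH-alendronate mice at 1 week and 547 to 61324 against 9283 to 78335 CPM in PTH mice at 2 weeks, and all 3 pairs of ranges overlapped. No gene of either list was at 0 in every library. Of the B cell genes tested, 2 of 5 fell at 1 week and 1 of 5 at 2 weeks, and of the T cell genes none of 4 and 2 of 4. All 6 skeletal muscle genes fell at 1 week (median -2.67) and none passed at 2 weeks (median 0.33), and all 3 erythroid genes tested fell at both weeks (medians -1.06 and -1.20). In alendronate mice at 1 week the summed muscle level was 29.0 to 699 CPM in loaded and 234 to 6348 CPM in contralateral cartilage, and the erythroid level was 130 to 2390 against 1362 to 3914 CPM, both overlapping. In the same limbs the summed osteoblast and osteocyte level was 10818 to 41037 against 2302 to 8967 CPM, which did not overlap. This sum is weighted to Col1a1, the list's highest gene in cartilage at 1 week (median 8964 CPM, against 1760 for Ibsp). Gene by gene, 2 of the 8 rose in that comparison and 4 had a positive difference (median 0.23). The fibroblast and synovium level was 5933 to 27927 against 2092 to 17040 CPM, which overlapped. Of the 8 genes of that list 1 rose and 1 fell there, and 3 had a positive difference (median -0.19). Of 6 chondrocyte genes tested, 6 rose at both weeks (medians 1.69 and 2.22), and of the 11 macrophage genes tested 2 rose and 1 fell at 1 week and 2 rose and 2 fell at 2 weeks. The part of these cell types in the C3 and C4b differences was not tested. In bulk tissue, fewer cells of a type and less RNA per cell cannot be told apart.

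In cortical bone, cancellous bone and lymph node, none of the 154 tests of loading within a treatment was called for the 7 genes with limma, against 0.0263% of all gene tests, and 11 of the 154 had an unadjusted p under 0.05. With edgeR on the recovered reads 1 was called, with no share of all genes set beside it. The nearest in the average over treatments was C3 in cortical bone at 1 week. In that tissue C3 had 98.0, 73.1, 94.3, 83.9 and 101 in loaded and 116, 167, 153, 151 and 112 in contralateral limbs of PTH mice, which did not overlap (-0.63 ± 0.20, log2, limma adjusted p = 0.25). At 2 weeks PTH mice had 95.4 to 127 (median 114, n = 7) in loaded and 129 to 267 (median 151, n = 8) in contralateral limbs, which did not overlap either (-0.48 ± 0.50, adjusted p = 1.0). The largest cortical difference was that of vehicle mice at 2 weeks, -1.30 ± 0.50 (adjusted p = 0.471). The average difference at 1 week was -0.36 (95% interval -0.60 to -0.12, adjusted p = 0.123), and C3 was lower in the loaded limb in 6 of 7 cortical comparisons. The loaded limbs of PTH-alendronate mice kept a lone library in each bone at 1 week and were not tested there. The bone averages of that week leave these mice out. Before loading, left and right limbs differed for none of the 7 genes in any tissue (0 of 28 tests with limma, 0 with an unadjusted p under 0.05 and 0 with edgeR, against 0.0% of all gene tests).

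PTH before loading was compared with vehicle in each tissue at 26 weeks of age. Over the 4 tissues 2 of 28 tests were called, both higher with PTH in cartilage, against 3.64% of all gene tests and 13.9% of those in cartilage. C4b had 13.6 to 339 (median 71.0, n = 15) in cartilage of PTH mice, against 16.7 to 108 (median 31.7, n = 15) in that of vehicle mice, and rose by 1.09 ± 0.31 (log2, limma adjusted p = 0.0161). Factor B had 12.9 to 150 (median 24.8) with PTH, against 4.81 to 45.1 (median 13.4) with vehicle, and rose by 1.04 ± 0.31 (adjusted p = 0.0221). Both groups overlapped for both genes. Here n counts limbs and not mice, since by the library codes each group holds both limbs of most of its mice. The correlation between limbs of a mouse was estimated at -0.0017, so the fit treated the limbs almost as independent.

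The PTH differences were spread unevenly over the limbs. In right limbs C4b had 13.6 to 339 (median 117, n = 7) with PTH and 17.7 to 108 (median 28.4, n = 8) with vehicle. In left limbs it had 45.8 to 101 (median 66.8, n = 8) with PTH and 16.7 to 80.4 (median 34.5, n = 7) with vehicle. Tested in the right limbs alone C4b differed by 1.40 (adjusted p = 0.061) and in the left limbs alone by 0.77 (adjusted p = 0.373), a split chosen after seeing the data, and neither passed. Factor B passed in the right limbs alone (1.28, adjusted p = 0.0368) and not in the left limbs alone (0.81, adjusted p = 0.514). Whether the limbs differ was not tested. With the 2 cartilage libraries under 100000 reads included, both calls were lost (C4b 0.74, adjusted p = 0.492; Cfb 0.96, adjusted p = 0.353). Without the library with lymph node markers both were kept (C4b 1.13, adjusted p = 0.0131; Cfb 0.88, adjusted p = 0.0309).

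**Figure D3:**
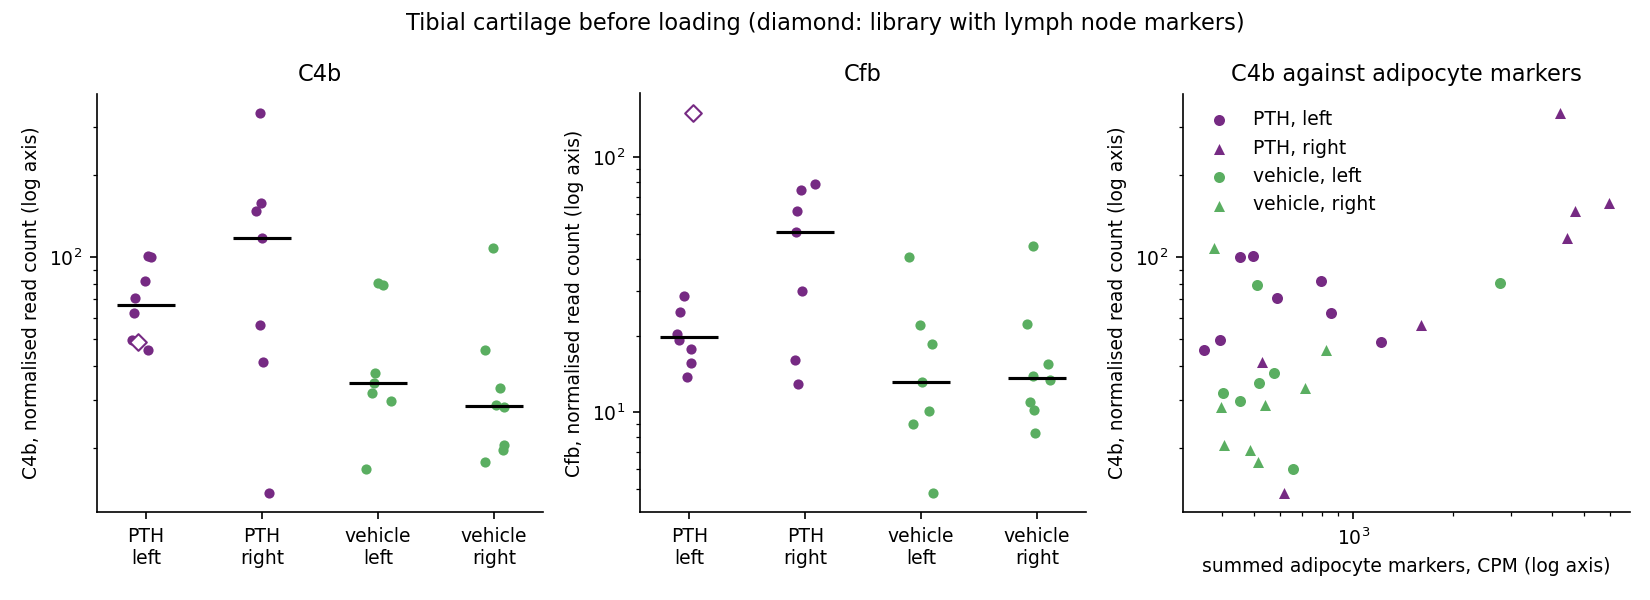
Cartilage before loading: normalised read counts (log axes) of C4b and Cfb by treatment and limb, with group medians as bars and a library with lymph node markers as a diamond, and C4b against the summed adipocyte markers in CPM. The right limbs of PTH mice have the highest medians, 117 for C4b and 51.2 for Cfb, and also the highest adipocyte level, with a median of 4237 CPM.

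The other members were not called in this comparison, with -0.09 for C3, -0.10 for C1qa, -0.06 for C1qb, 0.07 for C1qc and 0.20 for C2 (log2). Among other complement genes 3 of 7 upstream and terminal components rose and 1 fell (median 0.69, against 0.03 over all genes), 3 of 8 regulators rose (median 0.28), and 3 of 11 receptors rose and 1 fell (median -0.09). Fcna, the ficolin of the lectin pathway, fell by 1.21 ± 0.21 (limma adjusted p = 0.000665). Colec12 rose by 1.06 ± 0.21 (adjusted p = 0.00152) and Lrp1 by 0.79 ± 0.20 (adjusted p = 0.00961). Of the 8 adipocyte genes 5 rose with PTH (median 1.17). Their summed level was 528 to 5992 CPM in right limbs with PTH and 377 to 826 CPM in right limbs with vehicle, and 350 to 1209 and 400 to 2780 CPM in left limbs. Of the 8 fibroblast and synovium genes 5 rose (median 1.00), with summed levels of 8942 to 107499 CPM with PTH and 4496 to 47553 CPM with vehicle, and all 8 neutrophil genes fell (median -1.13), with 2872 to 42400 and 20179 to 58348 CPM. Of the 8 osteoblast and osteocyte genes 7 rose (median 0.80), with 5382 to 17483 CPM with PTH and 5205 to 16934 CPM with vehicle, and 2 of the 3 erythroid genes tested fell (median -0.94), with 134 to 2012 and 845 to 2171 CPM. In the erythroid list Hbb-bs and Hba-a1 were at 0 in every library and in the other 4 lists no gene was, and the part of these cell types was not tested.

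In bone and lymph node PTH before loading gave no call for the 7 genes. C4b differed by 1.35 ± 0.66 in cancellous bone (adjusted p = 0.839) and -0.99 ± 0.63 in cortical bone (adjusted p = 1.0), positive as in cartilage in the one and negative in the other, and neither passed. In lymph node the largest difference was that of C1qc, 0.45 ± 0.15 (adjusted p = 0.136).

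The treatments were also compared with vehicle mice limb by limb after loading. In the loaded limb none of 154 tests was called (2.1% of all gene tests; 14 with an unadjusted p under 0.05), and PTH-alendronate against alendronate mice gave none of 98 (0.113%; 7 unadjusted). In the contralateral limb 2 of 168 were called (1.19%, against 1.5% of all gene tests). Both were in the right inguinal lymph node of alendronate mice at 2 weeks, a comparison in which 9.54% of all genes were called.

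C1qa, the A chain of C1q, had 1058 to 1954 (median 1314, n = 8) in right lymph nodes of alendronate mice, against 419 to 894 (median 464, n = 6) in those of vehicle mice. The groups did not overlap, and C1qa rose by 1.36 ± 0.34 (log2, limma adjusted p = 0.00573). The call held in all 14 fits that left out 1 library (adjusted p up to 0.017). Vehicle library 5 had a summed neutrophil level of 19984 CPM, against at most 1102 CPM in the other lymph node libraries at 2 weeks, and none of the 8 neutrophil genes passed in this comparison (median -1.82). Without that library C1qa differed by 1.29 (adjusted p = 0.017) and factor B by 0.55 (adjusted p = 0.0435), an alternative added after seeing the data. PTH-alendronate mice lay between, with 593 to 1247 (median 909, n = 8) and a difference of 0.78 ± 0.34 from vehicle mice (adjusted p = 0.198). PTH mice had 451 to 1057 (median 625, n = 6) and a difference of 0.30 ± 0.36 (adjusted p = 1.0).

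The differences of the other chains were smaller and did not pass, and the chains were not tested against each other. C1qb had 605 to 1163 (median 780) in alendronate mice, against 324 to 978 (median 676) in vehicle mice, a difference of 0.35 ± 0.32 (limma adjusted p = 0.566). C1qc had 446 to 836 (median 546), against 141 to 669 (median 622), a difference of 0.23 ± 0.33 (adjusted p = 0.745). Both pairs of groups overlapped. Factor B had 580 to 976 (median 693) in alendronate mice and 387 to 581 (median 537) in vehicle mice, which overlapped by a margin of about 2 counts, and rose by 0.51 ± 0.17 (adjusted p = 0.0428). The factor B call was lost with all libraries included (adjusted p = 0.0719), without a filter on low values (adjusted p = 0.0511) and after quantile scaling (adjusted p = 0.0541). It was also lost in 8 of the 14 fits that left out 1 library, without alendronate library 1, 2, 4, 5 or 7 or vehicle library 2, 4 or 6 (adjusted p up to 0.117).

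On the left side C1qa had 405 to 1320 (median 1154, n = 8) in alendronate mice and 405 to 7175 (median 714, n = 7) in vehicle mice, a difference of 0.20 ± 0.33 (limma adjusted p = 0.682). The highest value came from a library that also had 2288 counts of C1qb and 75.2 of C1qc. The change of the difference from the right to the left side was -1.15 ± 0.45 (adjusted p = 0.413), so the sides were not shown to differ. At 2 weeks every lymph node library of mice given alendronate has a code with a letter and every other one a plain number, and the code series and alendronate cannot be told apart. The log2 ratio of C1qa to C1qb had a median of 0.47 in the letter series and -0.18 in the number series. The same ratio had medians of 0.53 and -0.27 in the lymph node libraries of 0 and 1 weeks, all of the number series.

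**Figure D4:**
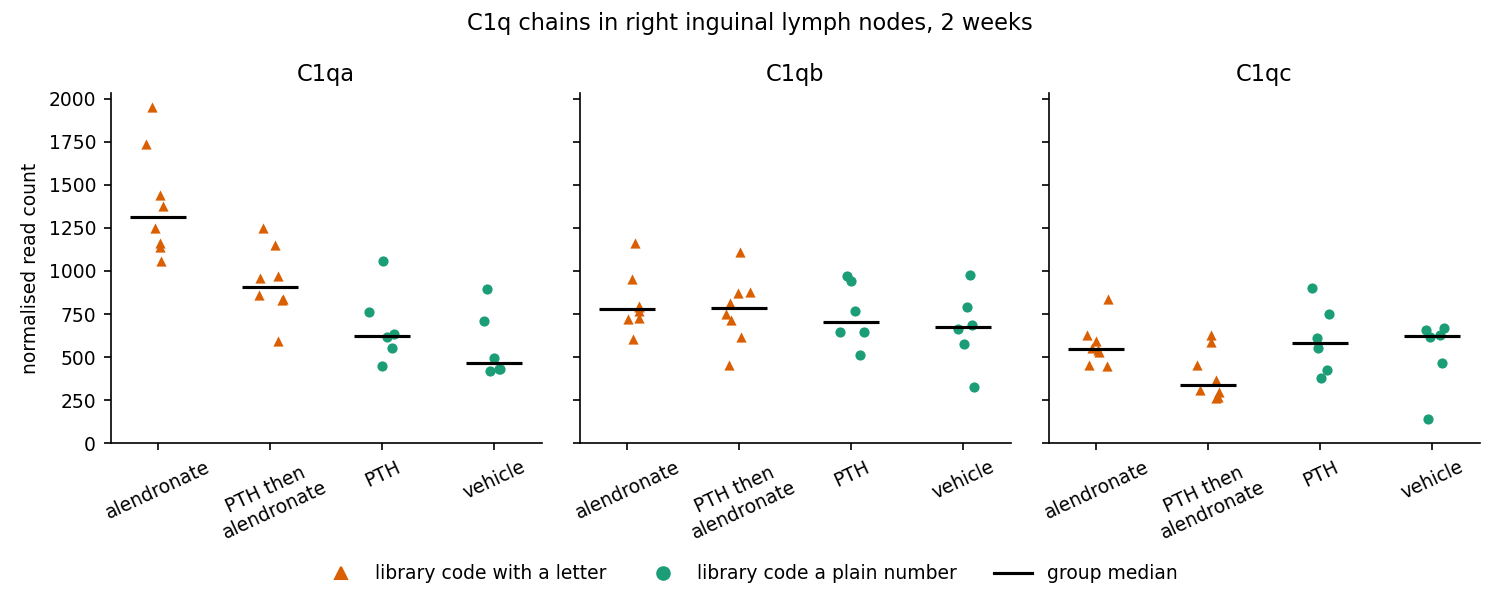
Normalised read counts of the 3 C1q chains in right inguinal lymph nodes at 2 weeks by treatment, with group medians as bars and the library code series as colour and shape. C1qa lies at 1058 to 1954 in alendronate mice and at 419 to 894 in vehicle mice, while the C1qb and C1qc groups overlap.

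Of the other complement genes in that comparison, 1 of 11 upstream and terminal components rose, 1 of 10 regulators rose and 1 fell, and 2 of 10 receptors rose and 1 fell, with medians of 0.02, -0.14 and -0.03 against -0.02 over all genes. Itgam, the other chain of complement receptor 3, rose by 1.88 ± 0.42 (limma adjusted p = 0.00202). Cd55, which dissociates C3 convertases, rose by 0.98 ± 0.20 (adjusted p = 0.000713), Calr rose by 0.81 ± 0.16 (adjusted p = 0.000284) and Cd93 fell by 0.89 ± 0.22 (adjusted p = 0.00444). Of 11 macrophage genes tested 2 rose (median 0.71), with a summed level of 1175 to 2053 CPM in right lymph nodes of alendronate mice and 950 to 1611 CPM in those of vehicle mice and with Adgre1 at 0, and their part in the C1qa difference was not tested.

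Levels were set side by side across tissues in CPM, since the tables were normalised separately. Lymph node had the highest median for all 7 genes. C3 had a median of 1359 CPM in lymph node (quartiles 1149 and 1508), against 164 in cartilage (118 to 239), 163 in cancellous bone (138 to 209) and 136 in cortical bone (105 to 178). Factor B had 371 CPM in lymph node (313 to 431), 25.6 in cancellous bone (13.5 to 41.1), 22.3 in cartilage (15.8 to 33.3) and 21.2 in cortical bone (14.1 to 30.1). For both genes the lymph node stood clear of the others, while the 3 skeletal tissues overlapped in their middle ranges.

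C4b followed another order, with 162 CPM in lymph node (138 to 195), 60.3 in cartilage (41.6 to 99), 35.9 in cancellous bone (23.6 to 49.1) and 22.0 in cortical bone (14.4 to 31.1). Cartilage stood between lymph node and cortical bone and overlapped with cancellous bone. C2 had 46.4 CPM in lymph node (37.6 to 59.5), 12.9 in cortical bone (7.83 to 19.1), 12.7 in cancellous bone (6.68 to 20.3) and 5.42 in cartilage (2.98 to 9.03), and the middle ranges of the 3 skeletal tissues overlapped. The C1q chains were more even. C1qa had 477 CPM in lymph node (366 to 650), 333 in cancellous bone (252 to 492), 318 in cortical bone (222 to 406) and 159 in cartilage (131 to 211), where lymph node and both bones overlapped and cartilage lay below them. C1qb had 449 CPM in lymph node (365 to 541) and 227, 216 and 209 CPM in cancellous bone, cartilage and cortical bone, whose middle ranges overlapped. C1qc had 288, 236, 212 and 146 CPM in lymph node, cancellous bone, cartilage and cortical bone.

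**Figure D5:**
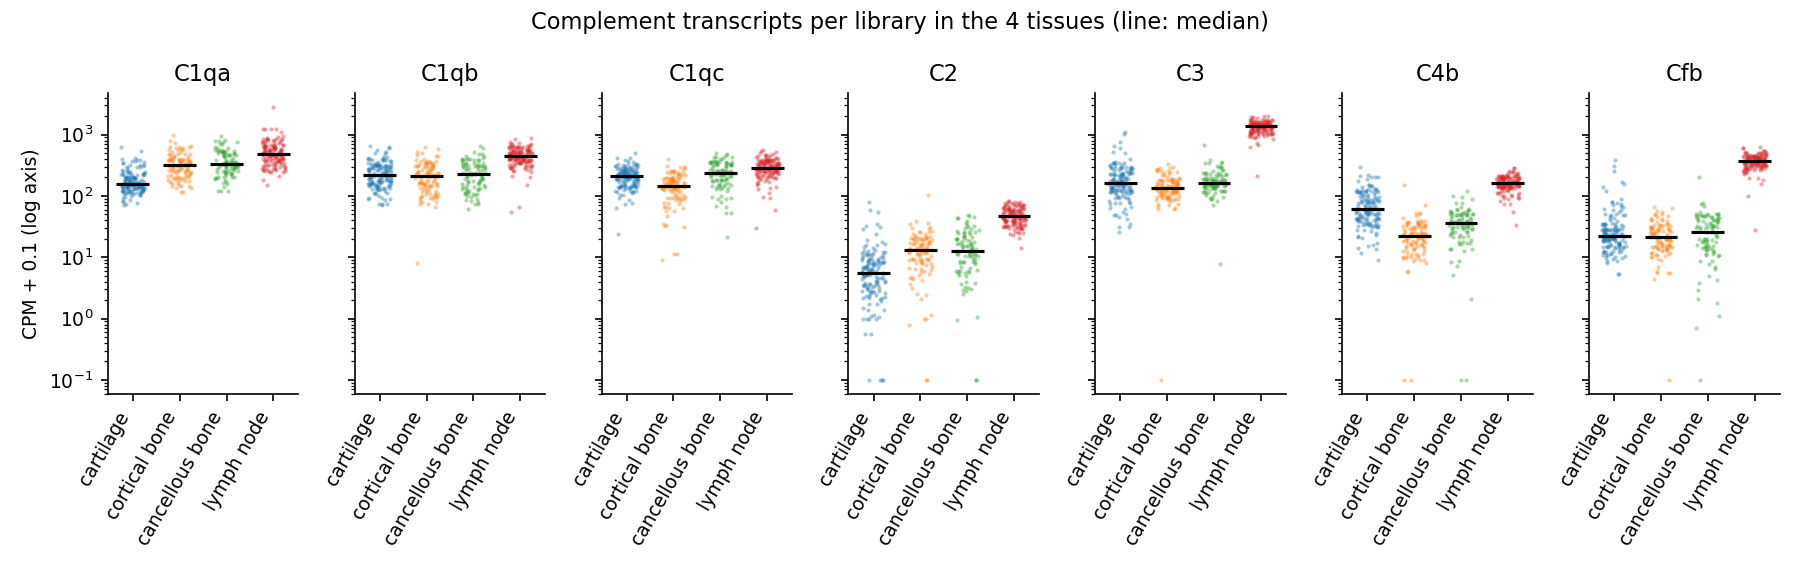
Level of each gene in every library of the 4 tissues, in CPM with 0.1 added (log axis), with the median as a bar. C3 and Cfb in lymph node (medians 1359 and 371 CPM) stand above the other tissues, and C2 is at 0 in 4 cartilage libraries.

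The members varied together to different degrees within groups. Correlations were taken over the libraries of each table after removing group means and are given as medians over the 12 tables (477 libraries). They share library depth and tissue composition and carry no test. C1qa and C1qb were the closest pair (median r = 0.698, range 0.486 to 0.929), while C1qa and C1qc had a median of 0.086 (-0.317 to 0.738). C3 and factor B had 0.515 over all tables, and C4b and factor B had 0.618 over the 3 cartilage tables. C2 and factor B, which lie 85 bases apart, had 0.606 in cartilage and 0.373 over all tables. Without the libraries with lymph node markers C2 and factor B had 0.476 in cartilage, and C4b and factor B 0.591.

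Of 12449 genes, Axl, a receptor for the uptake of dead cells, followed the mean of the C1q chains most closely (median r = 0.731), ahead of the lysosomal protease Ctsd (0.664), Slc48a1 (0.640), Lgals3bp (0.627) and Tagln2 (0.613). C3 was followed most closely by 4632428N05Rik (0.641), Ly6c2 (0.615), Tapbp (0.614), Il16 (0.613) and Dok3 (0.609). C4b was followed by Rras (0.556), Plvap (0.548), Cygb (0.528), Icam1 (0.505) and Il6st (0.499), and factor B by Shisa5 (0.545), Use1 (0.541), Ehd3 (0.537), H2-Ab1 (0.527) and Rab13 (0.53). C2 was followed less closely, by C1ra (0.433), P2ry13 (0.405), Ccl8 (0.393), Mdh1 (0.380) and Lyve1 (0.378). In cartilage the C3 level ran with the T cell, B cell and lymph node stroma lists (median r = 0.686, 0.618 and 0.611 over 3 tables), that of factor B with the lymph node stroma list (0.695) and that of C4b with the adipocyte list (0.468). These values include the 8 libraries with lymph node markers. Over the other 135 the C3 values were 0.429, 0.424 and 0.209, that of factor B 0.456 and that of C4b 0.589. Of all lists over these 135, C3 ran most closely with the neutrophil (0.723), erythroid (0.578) and monocyte and dendritic cell lists (0.511). Factor B ran most closely with the adipocyte list (0.584).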

How the data were processed

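Libraries were made from total RNA with a 3′ kit, per the labels' protocols; reads were trimmed with Trimmomatic 0.39 and aligned with STAR to mm10, and edgeR is named, per the submitters' processing notes. The counting tool and annotation are not given in the sources used here. The authors deposited normalised read counts, a signal that came out as whole reads (within 0.01) times 1 factor per library in 100.0% of values; rows naming no gene (at most 0.247% of reads) were left out.

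The main test was limma 3.58.1 (R 4.3.3, statmod 1.5.0) on log2(value + 1) within each table, over genes with at least 1 CPM in as many libraries as the smallest group, with the mouse as random block (correlation over 2000 genes), a code series term in bone after loading and a limb term before loading. Groups needed 3 libraries. The 28 libraries under 100000 reads and 44 samples without a column were not analysed here; groups kept 1 to 9 libraries. CPM is the share of a library's total. edgeR 4.0.16 ran on recovered reads as an alternative. Other alternatives were all libraries, array weights, a pseudocount of 0.25, no filter and quantile scaling. Further ones were the replicate number as block, no mouse block and no code series term. Each replicate was also left out in groups of up to 5 and in vehicle cartilage after loading. Replicate numbers in the labels paired limbs of 1 mouse in 28 of 29 cartilage cases at 1 week and 25 of 25 at 2 weeks, by the library codes. Elsewhere they did so less often. At 1 and 2 weeks the cases were 3 of 17 and 7 of 17 in cortical bone and 11 of 21 and 8 of 16 in cancellous bone. In lymph node they were 6 of 19 and 23 of 28. All p-values are two-sided and intervals 95%. Loading averaged over treatments, limbs alone, leaving out each replicate in the comparisons with a call, leaving out a lymph node library with over 5000 CPM of neutrophil markers, and leaving out libraries with lymph node markers (over 100 CPM of both the stroma and T cell lists) were added after seeing the data. The other complement genes named are the 4 of smallest p in each comparison, of which 1 is not reported here; the members and all lists were chosen with earlier results of these data known. The scripts were tested on simulated data.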

Additional observations from a re-analysis of the deposited data

Results flagged for a closer look

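In groups of 4 to 10 libraries, 17 of the 71 groups looked at held a library far from the rest by a gap test that flags about 1 group in 20 by chance. Libraries with lymph node markers gave 5 of them, namely C3 in loaded cartilage of PTH mice at 1 week (1191, others 93.5 to 293) and at 2 weeks (632, others 45.9 to 206), C3 in contralateral cartilage of PTH-alendronate mice at 1 week (1309, others 217 to 620), C4b in that same contralateral group (365, others 60.9 to 161), and Cfb in left cartilage of unloaded PTH mice (150, others 13.8 to 28.5).

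In cartilage at 1 week the same loaded limb of a vehicle mouse was highest for C4b (276, others 73.1 to 107) and for C1qb (1372, others 497 to 829), and a loaded limb of an alendronate mouse was highest for C1qb (1186, others 395 to 661). At 2 weeks C3 stood out in a loaded (345, others 75.4 to 169) and a contralateral limb (509, others 175 to 231) of PTH-alendronate mice. C1qc stood out at 2 weeks in a loaded limb of a PTH-alendronate mouse (649, others 133 to 329) and a contralateral limb of a vehicle mouse (558, others 287 to 374). Before loading, the same right limb of a vehicle mouse was highest for C4b (108, others 17.7 to 45.8) and Cfb (45.1, others 8.26 to 22.3).

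In lymph node at 2 weeks, C1qc was high in a right node of an alendronate mouse (836, others 446 to 626). C1qa was low in a left node of an alendronate mouse (405, others 915 to 1320) and high in a left node of a vehicle mouse (7175, others 405 to 1002).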

How the results depend on the processing

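Counts of calls are those of the members with an adjusted p under 0.05. For the alternative settings the share of all genes called was not set beside these counts. Whether a setting such as array weights raised calls for all genes therefore cannot be told from them. Loading in cartilage gave 4 calls, 10 with array weights, 3 to 4 with each replicate left out, and 4 with the replicate number as a block. Loading in bone and lymph node gave 0, 4 with array weights, 1 with edgeR, and 0 with the replicate number as a block. In bone and lymph node same-numbered limbs were often of different mice, so that block is not a within-mouse comparison there. PTH before loading gave 2, 0 with all libraries, 4 with array weights, 0 in left and 1 in right limbs alone, and 2 to 2 with each replicate left out. Treatment in the contralateral limb gave 2, 1 with all libraries, no filter or quantile scaling, 13 with array weights, 4 with edgeR and 1 to 3 with each replicate left out. Treatment in the loaded limb gave 0, 6 with array weights and 2 with quantile scaling. PTH among alendronate mice gave 0, and 0 to 1 with each replicate left out, the call appearing without replicate 2 of PTH-alendronate or replicate 4 of alendronate right cortical bone at 1 week. Interactions and left against right before loading gave 0 in every setting, and loading averaged over treatments 5 to 9. Replicates were left out in groups of up to 5, in vehicle cartilage and in the comparisons with a call. Of 736 alternative values for 26 fold changes, 697 stayed on their side of the threshold with the same sign, 9 gained and 29 lost a call. Most of these values come from fits that left out 1 library and so share nearly all their data. For fold changes not called in the main fit, staying means that they were still not called. C4b in PTH-alendronate cartilage at 1 week reversed with array weights (0.0280, adjusted p = 0.982). Among calls lost and not given above, C3 in alendronate cartilage at 1 week had -1.02 with edgeR (adjusted p = 0.066), and C3 in PTH-alendronate cartilage at 1 week had adjusted p = 0.0871 with array weights and 0.0537 with no filter. Among calls gained and not given above, array weights brought past the threshold C3 (adjusted p = 0.000412) and C4b (0.00212) in vehicle cartilage at 1 week, C3 in PTH cartilage at 1 week (0.000209), and C4b in PTH (0.0345) and vehicle cartilage (0.00636) at 2 weeks. The replicate block changed no call other than those given in the report. The causes were not tested. C2 had the lowest median level of the members in each tissue, and compared groups in bone were as small as 3 libraries.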

Other observations

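Interferon and acute-phase genes were listed as well, since C3 and factor B are known targets of both kinds of signal. In cartilage, with loading averaged over the treatments, 4 of 12 interferon response genes fell and none rose at both weeks (medians -0.30 and -0.37 on the log2 scale). Of the 9 acute-phase and NF-kB response genes tested, 3 rose and 2 fell at 1 week (median -0.08), and 1 rose and 1 fell at 2 weeks (median -0.19). With PTH before loading, 4 of 12 interferon response genes fell and none rose (median -0.47), and 1 of 7 acute-phase genes fell and none rose (median -0.46), while factor B rose. In right lymph nodes of alendronate mice at 2 weeks, 2 of 12 interferon response genes rose against vehicle mice (median 0.12), and none of 9 acute-phase genes was called.

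In cortical bone before loading, C2 and C1qc differed between PTH and vehicle mice by -1.39 ± 0.45 and -0.98 ± 0.40 (log2), and neither passed (limma adjusted p = 1.0 for both). The log2 ratio of C1qa to C1qb in cartilage had medians of 0.12 before loading, -0.69 at 1 week and, at 2 weeks, 0.06 in libraries with a letter code and -0.69 in those with a number code. In cartilage at 2 weeks the letter codes are those of mice given alendronate and the number codes those of the other mice, so the code series and alendronate cannot be told apart there.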
